A study of Mus musculus with 6 samples.

Results

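The Frizzled receptor genes of the mouse, Fzd1 to Fzd10, were examined in sorted hair follicle stem cells (HFSCs). The 10 genes were taken by name, without use of any measured value, from a table of 56941 genes, and all 10 were among the 32149 genes with enough counts to test. The study isolated CD34+/α6-integrin+ cells from the dorsal skin of female mice at postnatal day 68 (PD68) by fluorescence-activated cell sorting and sequenced their total RNA in 3 libraries per genotype. The mice were of the strain B6;129S4-Dab2tm1Cpr/J, and both genotypes carried floxed Dab2 alleles (Dab2 fl/fl) and received tamoxifen at 75 mg/kg per day on 5 days. WT mice lacked the K14CreER transgene, whereas Dab2-cKO mice carried it, so recombination was driven from the keratin 14 promoter in basal keratinocytes and their follicular relatives and not in HFSCs alone. The sampling at PD68 was meant to compare the genotypes when the follicles of both were in the second telogen, the resting phase of the hair cycle, rather than in different phases. Whether the phases matched in these libraries was not tested. Markers of the hair shaft, the hair germ and proliferation differed between the groups, as given below. The labels call the libraries biological replicates without saying how many mice each one held, and the libraries held 7040032 to 11696457 counts.

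Frizzled proteins are receptors in the cell membrane that bind secreted Wnt ligands through a cysteine-rich domain outside the cell. With the co-receptor Lrp5 or Lrp6 they recruit Dishevelled, which protects β-catenin from destruction and lets it act with Lef/Tcf factors in the nucleus. With other partners such as Vangl, Celsr, Ror2 or Ptk7, they orient cells within a sheet or signal without β-catenin. In the hair follicle, Wnt signalling through β-catenin starts the growth phase from the bulge and the hair germ, and Fzd6 is known for its part in the orientation of hairs. By sequence the family falls into the groups Fzd1, Fzd2 and Fzd7, then Fzd3 and Fzd6, then Fzd5 and Fzd8, and finally Fzd4, Fzd9 and Fzd10.

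All members contain the short motif inside the cell, just past the last membrane span, that binds Dishevelled. In the coding sequence it reads as a lysine and a threonine codon, any 3 codons and a tryptophan codon, and it occurred once in the canonical transcript of each of the 10 genes (GENCODE vM39). The stretches are shown because they are the part of the receptor that passes the signal on and because the members that moved apart in these libraries share it. Capitals mark the fixed codons, and the stretch of Fzd8 is not shown here.
Fzd1: AAGACActgaattccTGG
Fzd2: AAGACActgcactcgTGG
Fzd7: AAGACCctgcagtcaTGG
Fzd3: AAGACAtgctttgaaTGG
Fzd6: AAGACGtgcacagaaTGG
Fzd5: AAGACTctggagtctTGG
Fzd4: AAAACTcttcacacgTGG
Fzd9: AAGACTtttcagactTGG
Fzd10: AAGACCctgcagtccTGG
The tail that follows the motif was the shortest in Fzd1 and Fzd2, with 17 codons each, and the longest in Fzd3 and Fzd6, with 159 and 206 codons. Fzd4 had 33 codons after the motif, Fzd7 had 40, Fzd10 had 50, Fzd9 had 54, Fzd5 had 55 and Fzd8 had 74.

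RefSeq promoter windows, from 250 bases before to 50 bases after a gene's start, were given for Fzd1, Fzd4, Fzd5, Fzd7, Fzd9 and Fzd10. Those of Fzd4, Fzd5 and Fzd1 are shown, as 3 of the 4 genes that passed the test against a 1.5-fold change described below. The fourth is Fzd10, whose RefSeq start lies 262 bases past the GENCODE start, so that its window falls within the GENCODE exon and is not shown. The RefSeq start lies 181 bases before the GENCODE start in Fzd1, so that its window is wholly upstream of the GENCODE gene, and 11 and 25 bases past it in Fzd4 and Fzd5. They were taken from a table of the build GRCm38.p6, each matched the build GRCm39 exactly once, and the positions are those of GRCm39. Capitals mark matches, on either strand, to the TCF/LEF core CTTTGA, the GC box GGGCGG, the CCAAT box CCAAT and the TATA box TATAAA, and matches may overlap one another.
Fzd4, chr7:89053324-89053623 (+): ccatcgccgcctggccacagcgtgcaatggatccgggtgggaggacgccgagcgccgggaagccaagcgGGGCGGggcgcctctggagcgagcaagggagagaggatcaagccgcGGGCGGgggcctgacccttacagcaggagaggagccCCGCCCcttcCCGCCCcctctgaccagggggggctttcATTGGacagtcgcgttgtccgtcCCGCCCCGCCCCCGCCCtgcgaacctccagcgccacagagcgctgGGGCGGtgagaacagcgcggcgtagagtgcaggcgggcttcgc
Fzd5, chr1:64776860-64777159 (−): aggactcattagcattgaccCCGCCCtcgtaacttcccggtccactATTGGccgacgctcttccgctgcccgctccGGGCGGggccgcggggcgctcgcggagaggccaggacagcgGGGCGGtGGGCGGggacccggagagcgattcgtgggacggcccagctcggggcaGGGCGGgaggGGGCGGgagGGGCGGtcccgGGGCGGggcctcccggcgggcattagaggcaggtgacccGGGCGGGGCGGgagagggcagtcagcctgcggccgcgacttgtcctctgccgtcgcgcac
Fzd1, chr5:4808167-4808466 (−): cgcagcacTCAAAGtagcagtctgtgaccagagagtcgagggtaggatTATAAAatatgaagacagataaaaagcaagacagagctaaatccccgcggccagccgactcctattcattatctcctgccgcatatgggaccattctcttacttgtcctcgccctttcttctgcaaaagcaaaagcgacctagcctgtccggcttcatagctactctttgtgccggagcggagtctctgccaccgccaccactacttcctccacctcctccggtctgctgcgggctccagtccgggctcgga
The window of Fzd4 held 8 GC boxes and 1 CCAAT box, and that of Fzd5 held 10 GC boxes and 1 CCAAT box. The window of Fzd1 held 1 match to the TCF/LEF core and 1 TATA box and no GC box. Among 32851 promoters of this length, 35.7% held a GC box, 37.4% a CCAAT box, 16.0% a TCF/LEF core and 13.6% a TATA box. The windows of Fzd10 and Fzd9 held 1 GC box each, and that of Fzd7 held 7 GC boxes and 2 CCAAT boxes. In Fzd9 the RefSeq start lies 183 bases past the GENCODE start, so most of its window falls within the GENCODE exon.

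The identity of the libraries was checked on Dab2, an adaptor protein of clathrin-mediated endocytosis and the targeted gene. It had 304, 368 and 362 counts in the WT libraries and 1504, 1130 and 1259 counts in the libraries labelled Dab2-cKO, a log2 fold change of 2.08 (SE 0.08, adjusted p = 3.04e-34), which goes against the label. A count over the whole gene need not show the loss of a floxed exon, and single exons were not examined. The cause of the rise was not tested. The columns of these libraries were headed only by the floxed genotype, which both groups carry. Every direction given below therefore belongs to the libraries labelled Dab2-cKO and depends on that label. The sorted population was checked too, and markers of other cells were abundant in it although the epidermis had been separated from the dermis. Normalized counts here are counts corrected for the effective size of each library and brought to the mean size. Col1a1, a collagen of fibroblasts, had 7018 ± 724 normalized counts per kb of exon in WT and 20700 ± 407 in the libraries labelled Dab2-cKO. Krt14, the keratin of basal keratinocytes, had 3403 ± 224 and 6122 ± 136, and Cd34, the surface protein used in the sort, had 42.7 ± 4.45 and 149 ± 2.98. Of the marker lists not taken up below, those of mural cells (6 of 6), immune cells (7 of 8), skeletal muscle (6 of 6), adipocytes (4 of 5), differentiated epidermis (5 of 6) and sebaceous gland (5 of 6) were mostly called higher, whereas 5 of 6 melanocyte and 3 of 6 dermal papilla markers were called lower. In such bulk libraries, fewer cells of a type and less RNA per cell cannot be told apart.

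Of the 10 Frizzled genes, 1 rose, 6 fell and 3 did not pass the test in the libraries labelled Dab2-cKO. Fzd4 rose, and Fzd1, Fzd3, Fzd5, Fzd6, Fzd7 and Fzd10 fell, while Fzd2, Fzd8 and Fzd9 were not called. Among all genes tested by edgeR's quasi-likelihood test at an adjusted p under 0.05, 16.8% were called higher and 11.5% lower. The median log2 fold change of the members was −0.62, beside −0.023 over all genes. All 3 libraries of one genotype lay above all 3 of the other for the same 7 genes, with 1 above and 6 below WT. Over all genes tested, 20.6% lay wholly above WT and 17.7% wholly below it. Against a fold change of 1.5, 4 members remained called, Fzd4 higher and Fzd1, Fzd5 and Fzd10 lower. Of all calls, 59.4% were higher in the libraries labelled Dab2-cKO, a share that fell to 43.5% with upper-quartile scaling, which moved the median of all genes to −0.17, and to 19.4% with library size alone, which moved it to −0.45.

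**Figure D1:**
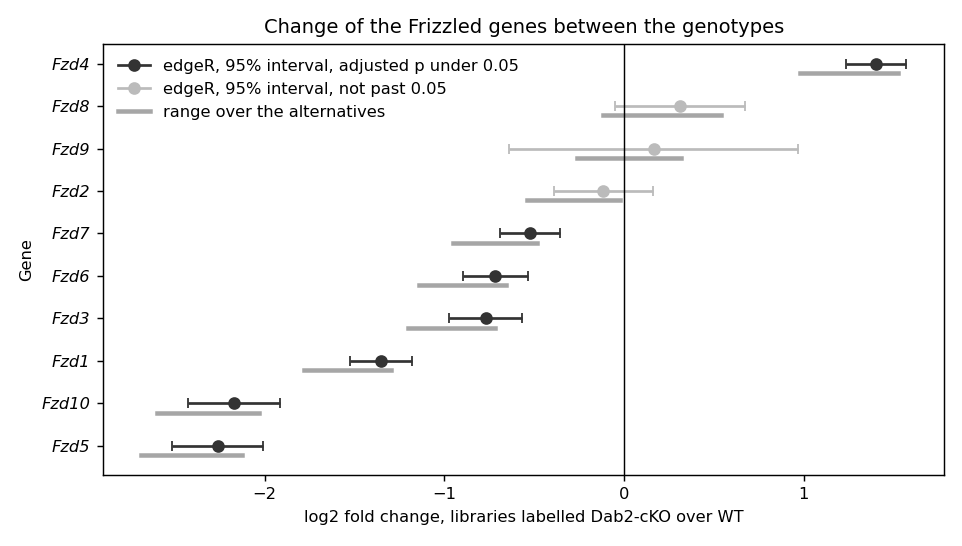
Log2 fold change of each Frizzled gene in the libraries labelled Dab2-cKO over WT on the x axis, one gene per row. Points and bars are the edgeR estimate and its 95% interval, dark where the adjusted p was under 0.05, and the grey line under each is the range over the alternatives. Fzd4 alone lay above 0 throughout, at 1.40, and Fzd5 and Fzd10 lay furthest below, at −2.26 and −2.17, while the ranges of Fzd8 and Fzd9 crossed 0.

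Fzd4 is the receptor for norrin as well as for Wnt ligands and is known for its role in the growth of retinal blood vessels. It spans chr7:89053563-89062342 on the plus strand of GRCm39, and its canonical transcript has 2 exons. Fzd4 had 443, 514 and 385 normalized counts in the WT libraries and 1131, 1125 and 1295 in those labelled Dab2-cKO. Each library labelled Dab2-cKO had more than 2 times the count of any WT library, and the groups did not overlap. The means were 447 ± 64.3 against 1184 ± 96.2 (SD, n = 3 each), a 2.65-fold rise with a log2 fold change of 1.40 (SE 0.08, adjusted p = 7.69e-24). No other gene overlaps its exons, so its counts could not be shared with an antisense partner in this annotation.

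Endothelial and fibroblast markers moved the same way as Fzd4. All 8 endothelial markers were called higher, and their summed level was 1539 to 1726 normalized counts in WT and 5416 to 5519 in the libraries labelled Dab2-cKO. All 8 fibroblast markers were also called higher, with sums of 103644 to 125328 and 363213 to 383179, and none of either list was at 0. Measured within each library, the ratio of Fzd4 to Pecam1, an adhesion protein of endothelial cells, was 1.605, 1.56 and 1.22 in WT and 0.988, 1.02 and 1.13 in the libraries labelled Dab2-cKO. The ratio was lower in the latter, without overlap (exact 2-sided permutation p = 0.1, the smallest possible), so the rise of Fzd4 was smaller than that of Pecam1. Its ratio to Col1a1 overlapped between the genotypes, with a log2 difference of −0.15 (exact permutation test over libraries, 2-sided p = 0.3, smallest possible 0.1). The ratio of Fzd4 to Krt14 was larger in the libraries labelled Dab2-cKO by 0.56 on the log2 scale, and that to Cd34 was lower, with a log2 difference of −0.40, both without overlap. The part of these cells in the rise of Fzd4 was not tested.

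Fzd5, a receptor needed for the development of the yolk sac and the eye, had the largest fall. It lies at chr1:64769717-64776934 on the minus strand. Fzd5 had 392, 534 and 448 normalized counts in the WT libraries and 98.2, 107 and 81.7 in those labelled Dab2-cKO. The lowest WT library was more than 3 times as high as the highest library labelled Dab2-cKO. The means were 458 ± 71.8 against 95.6 ± 12.9 (SD, n = 3 each), 4.80-fold lower with a log2 fold change of −2.26 (SE 0.13, adjusted p = 2.17e-25). Per kb of exon its mean fell from 66.0 ± 10.4 to 13.8 ± 1.85, near 11.6, the 95th percentile for the chemosensory receptor genes. These 1439 olfactory, vomeronasal and trace amine receptor genes were assumed to be mostly silent in the sorted cells and served as the level of stray reads.

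Fzd10, a member that signals through β-catenin in several settings, fell almost as far. It is a gene of 1 exon at chr5:128677908-128681157 on the plus strand. Fzd10 had 433, 469 and 431 normalized counts in the WT libraries and 127, 72.5 and 92.7 in those labelled Dab2-cKO. The WT libraries lay close together, and the first library labelled Dab2-cKO stood above the other two without reaching any WT library. The means were 444 ± 21.7 against 97.3 ± 27.5 (SD, n = 3 each), 4.51-fold lower with a log2 fold change of −2.17 (SE 0.13, adjusted p = 4.25e-24). An antisense gene, Fzd10os, covers 30.6% of the exon of Fzd10 and also fell, from a mean of 149 to 57.4 normalized counts with a log2 fold change of −1.38 (adjusted p = 4.76e-10). Whether the counting used the strand is not given in the sources used here, so reads in the shared stretch cannot be assigned to one of the pair. Fzd5 overlaps an antisense gene as well, Gm38058, over 18.1% of its exon bases, and that gene had a mean of 24.0 normalized counts in WT and 17.6 in the libraries labelled Dab2-cKO. Fzd6 and Fzd7 share 13.3% and 11.997% of their exon bases with antisense genes, and no member shares exon bases with a gene on its own strand.

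Hair germ and progenitor markers fell beside Fzd5 and Fzd10. All 8 were called lower with a median log2 fold change of −3.10, and their summed level went from 5546 to 6353 normalized counts in WT to between 660.5 and 749.5 in the libraries labelled Dab2-cKO. All 10 measured markers of the hair shaft and inner root sheath and all 10 proliferation markers were also called lower, with medians of −6.66 and −1.32. The former held 2.89% to 3.18% of all counts in WT and 0.0274% to 0.0289% in the libraries labelled Dab2-cKO. Proliferation markers summed to 10358 to 11371 normalized counts in WT and 3110 to 3204 in the libraries labelled Dab2-cKO. The part of the cells with any of these markers in the fall of the Frizzled genes was not tested. Of the 12 bulge markers, 6 were called higher and 4 lower with a median of 0.46, and of the 8 basal keratinocyte markers 3 were called higher and 5 lower. Against each of Krt14, Cd34, Col1a1 and Pecam1 in the same library, Fzd1, Fzd3, Fzd5, Fzd6, Fzd7 and Fzd10 were lower in every library labelled Dab2-cKO than in any WT library. So were Fzd2 and Fzd8, which were not called (log2 differences of −1.93 for Fzd2 to Cd34 and −1.54 for Fzd8 to Pecam1). These 4 reference genes were themselves higher in those libraries, so a gene with steady counts would also come out lower against them. The ratios therefore do not set the 6 called genes apart from Fzd2 and Fzd8.

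Fzd1, Fzd2 and Fzd7 are close relatives, of which Fzd1 and Fzd2 are known to act together in palate and heart development and Fzd7 in stem cells of the intestine. Fzd1 had 838, 823 and 804 normalized counts in the WT libraries and 348, 329 and 287 in those labelled Dab2-cKO. The WT values differed little among themselves, and each was more than 2 times as high as the highest library labelled Dab2-cKO. The means were 822 ± 17.2 against 321 ± 31.3 (SD, n = 3 each), with a log2 fold change of −1.35 (SE 0.09, adjusted p = 2.79e-22). Fzd7 had 620.2, 685 and 667 normalized counts in the WT libraries and 468, 438 and 466 in those labelled Dab2-cKO. Its groups did not overlap either, although they lay closer, at 658 ± 33.6 against 457 ± 16.6 (SD, n = 3 each), with a log2 fold change of −0.52 (SE 0.08, adjusted p = 3.10e-07). Fzd2 had 164, 187 and 156 normalized counts in the WT libraries and 174, 137 and 156 in those labelled Dab2-cKO, and the groups overlapped. Its log2 fold change was −0.11 with a 95% interval of −0.39 to 0.16 (adjusted p = 0.629), so a fall of the size seen for Fzd1 or Fzd7 lay outside that interval, although Fzd2 was called lower with library size alone (−0.54). Fzd1 lies at chr5:4803839-4808035 (minus strand), Fzd2 at chr11:102495222-102498884 (plus strand) and Fzd7 at chr1:59521269-59534685 (plus strand).

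Fzd3 and Fzd6 are the members best known from planar polarity, Fzd3 in the guidance of axons and Fzd6 in hair patterning. Fzd3 had 461, 406 and 472 normalized counts in the WT libraries and 251, 252 and 283 in those labelled Dab2-cKO. All of the latter were lower, with means of 446 ± 35.1 against 261.8 ± 17.99 (SD, n = 3 each) and a log2 fold change of −0.77 (SE 0.10, adjusted p = 1.66e-09). Fzd6 had 596, 632 and 562 normalized counts in the WT libraries and 386, 319 and 383 in those labelled Dab2-cKO. Every library labelled Dab2-cKO lay below every WT library, and the mean fell from 597 ± 34.9 to 363 ± 38.1 (SD, n = 3 each), with a log2 fold change of −0.72 (SE 0.09, adjusted p = 6.22e-10). The proportion of the pair overlapped between the genotypes, as the ratio of Fzd3 to Fzd6 counts was 0.774, 0.643 and 0.839 in WT and 0.649, 0.791 and 0.738 in the libraries labelled Dab2-cKO. They lie at chr14:65429573-65499933 (minus strand) and chr15:38869243-38901584 (plus strand) and, unlike most of the family, are spread over 7 exons in the canonical transcript.

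Fzd8 and Fzd9 were the members with the fewest counts. Fzd8, whose cysteine-rich domain is a standard reagent for binding Wnt, had 63.5, 82.2 and 109 normalized counts in the WT libraries and 119, 95.5 and 103 in those labelled Dab2-cKO. The groups overlapped, and the log2 fold change of 0.31 had a 95% interval of −0.052 to 0.67 (adjusted p = 0.229). The sign of Fzd8 turned with library size alone. Fzd9, a gene of the region deleted in Williams syndrome, had 21.2, 19.9 and 12.8 normalized counts in the WT libraries and 15.3, 19.6 and 25.4 in those labelled Dab2-cKO. All values were low, and the log2 fold change of 0.16 had a 95% interval of −0.64 to 0.97 (adjusted p = 0.833), wide enough to hold a change of 1.5-fold either way, and its sign turned with library size alone and without the third library of either genotype. Fzd9 had 7.83 ± 1.96 normalized counts per kb in WT and 8.75 ± 2.22 in the libraries labelled Dab2-cKO, below the 95th percentile for chemosensory receptor genes, so its expression was not detectable above stray reads. Fzd8 lies at chr18:9212163-9218136 (plus strand) and Fzd9 at chr5:135277792-135280084 (minus strand).

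Per kb of exon, Fzd1 had the highest level in WT and Fzd4 in the libraries labelled Dab2-cKO. The length took in all annotated exons of a gene, 5868 bases in Fzd7 and 6859 in Fzd6. Their canonical transcripts have 2959 and 4326 bases, so the places of Fzd7 and Fzd6 in the order depend on the length used. The order by canonical length was not tested. The WT order ran from Fzd1 at 196 ± 4.11 normalized counts per kb through Fzd10 at 137 ± 6.69, Fzd7 at 112 ± 5.73 and Fzd6 at 87.0 ± 5.09. Fzd5 at 66.0 ± 10.4 and Fzd4 at 65.3 ± 9.38 followed and overlapped each other. Fzd2 at 46.1 ± 4.44, Fzd3 at 33.7 ± 2.65, Fzd8 at 14.2 ± 3.79 and Fzd9 came last, and apart from Fzd5 and Fzd4 no neighbours in this order overlapped over the 3 libraries. In the libraries labelled Dab2-cKO, Fzd4 at 173 ± 14.0 stood alone at the top. Below it, Fzd7 at 78.0 ± 2.82 and Fzd1 at 76.6 ± 7.45 overlapped, as did Fzd6 at 52.9 ± 5.55 with Fzd2 at 42.4 ± 5.00 and Fzd2 with Fzd10 at 30.0 ± 8.45. Fzd3 at 19.8 ± 1.36 overlapped Fzd8 at 17.7 ± 2.03, and Fzd5 and Fzd9 closed the order. In each genotype, 9 of the 10 members had a mean above 11.6, the 95th percentile for chemosensory genes, whose median was 4.90 normalized counts per kb.

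**Figure D2:**
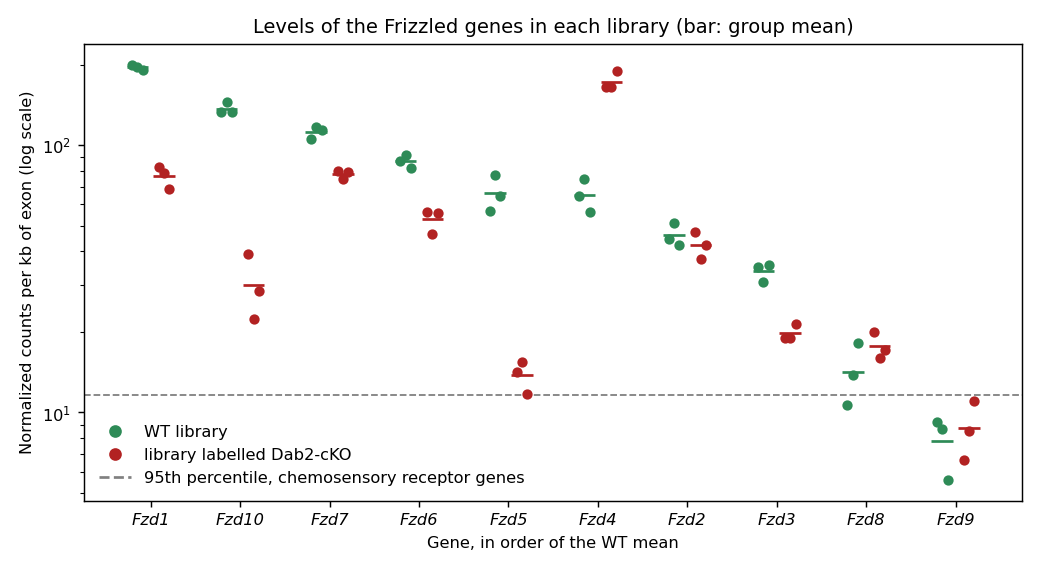
Normalized counts per kb of exon on a log axis for each Frizzled gene, in the order of the WT mean. Points are libraries (3 per genotype), short bars are group means, and the dashed line is the 95th percentile of chemosensory receptor genes, at 11.6. Fzd4 is the member whose points labelled Dab2-cKO lie wholly above those of WT, and Fzd9 is the member whose points all lie under the line.

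The summed level of the family was 765 ± 35.5 normalized counts per kb in WT and 513 ± 26.2 in the libraries labelled Dab2-cKO (SD, n = 3 each). Without Fzd4 the sums were 699 ± 27.2 and 339.8 ± 23.7. As a share of the family, which does not depend on the scaling between libraries, Fzd4 went from 8.52% ± 0.875 to 33.7% ± 2.45. Fzd10 went from 17.9% ± 0.0432 to 5.81% ± 1.41, Fzd1 from 25.6% ± 1.22 to 14.97% ± 1.71 and Fzd5 from 8.61% ± 0.998 to 2.70% ± 0.478. In the WT libraries Fzd10 held 17.9%, 17.9% and 17.8% of the family, the narrowest spread of any member there. The shares of Fzd2, Fzd4, Fzd8 and Fzd9 were higher in every library labelled Dab2-cKO than in any WT library, and those of Fzd1, Fzd5, Fzd6 and Fzd10 were lower. Each of these 8 differences had an exact 2-sided permutation p of 0.1, the smallest that 3 libraries against 3 can give. The shares sum to the whole family, so these differences are not independent. How often such differences arise in other sets of genes was not computed. Fzd9 was not detectable above stray reads in either genotype, so its share cannot be told from that of stray reads. Fzd8 was near that level too, with 10.6 normalized counts per kb in WT replicate 1, under the 95th percentile of 11.6. The shares of Fzd7, from 14.7% ± 0.594 to 15.2% ± 0.233, and of Fzd3, from 4.43% ± 0.538 to 3.87% ± 0.257, overlapped between the genotypes (exact permutation p = 0.3 each). The size of most shares depended on the measure. From raw counts, without division by length, all mean shares moved by at least their SD except Fzd8 in both genotypes and Fzd5 in the libraries labelled Dab2-cKO. Fzd1 then held 19.9% in WT and 10.5% in the libraries labelled Dab2-cKO, Fzd10 held 10.7% and 3.17%, and Fzd3 held 10.8% and 8.55%. Fzd2 held 5.07% in the libraries labelled Dab2-cKO, and Fzd9 held 0.433% in WT and 0.655% in the libraries labelled Dab2-cKO. With the level of the chemosensory receptor genes taken off, Fzd9 held 0.417% and 0.863%. Fzd8 went from 1.86% to 1.31% in WT and from 3.45% to 2.78% in the libraries labelled Dab2-cKO. In the latter, Fzd5 then held 1.96%, Fzd3 3.24% and Fzd7 15.8%, and Fzd10 held 18.4% in WT. Fzd4 held 10.8% and 38.7% from raw counts and 8.41% and 36.1% with that level taken off. A share is tied to the other members, so the larger shares of Fzd2, Fzd8 and Fzd9 went with a smaller family sum and not with a called rise.

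**Figure D3:**
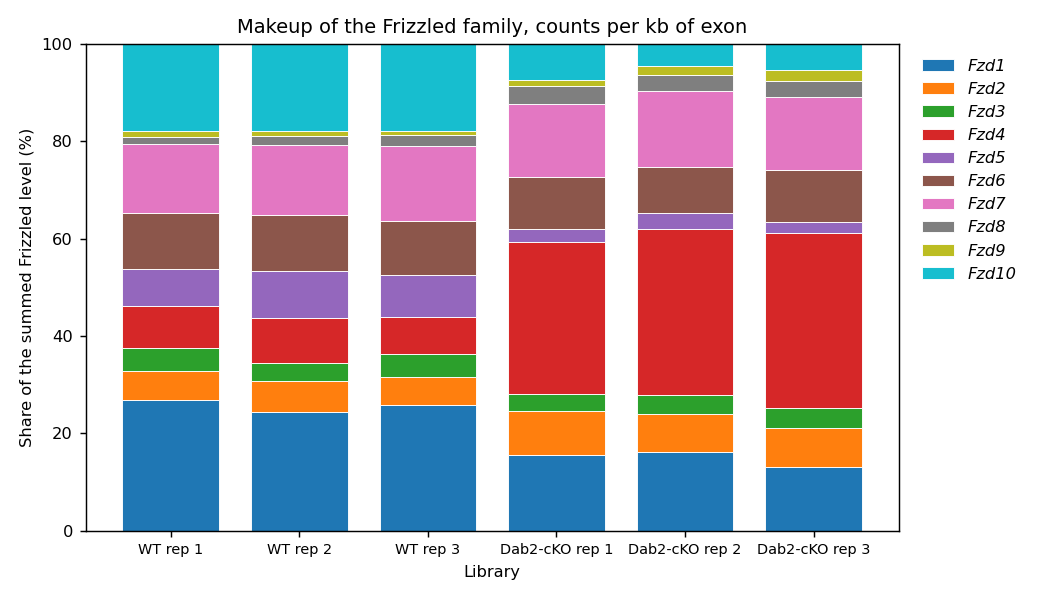
Share of each Frizzled gene in the summed counts per kb of exon of the family, in percent, as stacked bars for the 6 libraries. The Fzd4 segment takes 7.58% to 9.31% of the WT bars and 31.1% to 36.0% of the bars labelled Dab2-cKO, and the Fzd10 segment shrinks from 17.8% to 17.9% down to 4.62% to 7.36%.

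Relatives by sequence were compared with each other inside each library. The 8 pairs within the 4 groups were chosen after their values were seen. The count ratio of Fzd4 to Fzd10 was 1.02, 1.09 and 0.895 in WT and 8.92, 15.5 and 14.0 in the libraries labelled Dab2-cKO. The ratio of Fzd5 to Fzd8 was 6.18, 6.51 and 4.13 in WT and 0.824, 1.12 and 0.796 in the libraries labelled Dab2-cKO. That of Fzd1 to Fzd2 went from a mean of 4.90 to 2.08. The 7 pairs other than Fzd3 and Fzd6 did not overlap between the genotypes, with an exact permutation p of 0.1 each or 0.114 after adjustment over the 8 pairs. The share of such pairs over all genes was not computed. Of single genes tested, 20.6% lay wholly above WT and 17.7% wholly below it. The pairs reuse the same members and are not independent, and those with Fzd9 rest on its 15 to 23 counts per library, not detectable above stray reads. For Fzd3 and Fzd6 the exact permutation p was 0.8, with a log2 difference of −0.047.

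Among the genes that work with the Frizzled receptors, 86 were counted in lists by role. Of these, 12 were called higher, 35 lower and 39 were not called, beside the 16.8% and 11.5% of all genes given above, and their median log2 fold change was −0.22. Of the 19 Wnt ligands, 1 was called higher and 4 lower, and the largest change was that of Wnt10b, a ligand that is also among the hair germ markers, which fell to a log2 fold change of −1.94 (adjusted p = 3.73e-13). Of the 6 co-receptors, Lrp6 fell, with a log2 fold change of −0.48 (SE 0.07, adjusted p = 2.91e-08), and so did Ptk7, a pseudokinase of planar polarity, at −0.90 (adjusted p = 9.46e-16). Lrp5 was not called, at 0.10 with a 95% interval of −0.053 to 0.25, nor was Ror2, a receptor for Wnt5a, at −0.088 (−0.35 to 0.17), nor Ryk at −0.13 (−0.29 to 0.038).

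The partners of Fzd4 were listed apart. Tspan12, a membrane protein that strengthens norrin signalling through Fzd4, had 73.5, 65.0 and 59.8 normalized counts in the WT libraries and 145, 135 and 173 in those labelled Dab2-cKO, a log2 fold change of 1.20 (SE 0.17, adjusted p = 1.47e-08). Reck and Adgra2, which together present Wnt7 ligands to Frizzled receptors in brain vessels, were called higher too, at 0.74 (adjusted p = 4.28e-08) and 0.47 (adjusted p = 4.82e-04), the latter call being lost with library size alone (0.044). Ndp, the gene of norrin itself, was not called, at −0.15 with a 95% interval of −0.66 to 0.36. Thus 3 of the 4 genes of this list were called higher and none lower, beside 16.8% and 11.5% of all genes tested. The list was chosen with earlier results of these data known. Endothelial markers moved the same way, and so did most markers of fibroblasts, mural cells, immune cells and skeletal muscle. The part of any of these cells in the rise of the partners was not tested.

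Of the 9 genes that set the number of receptors on the membrane, 2 were called higher and 5 lower. Znrf3 and Rnf43, ubiquitin ligases that remove Frizzled proteins from the surface, fell from 436 ± 14.0 to 205 ± 16.0 (SD, n = 3 each) and from 414 ± 10.2 to 184 ± 10.9 (SD, n = 3 each), with log2 fold changes of −1.09 and −1.17 (adjusted p = 3.16e-14 and 5.09e-15). The R-spondin receptors Lgr4 and Lgr5, which restrain these ligases, fell as well, at −1.06 and −1.32 (adjusted p = 7.09e-19 and 2.01e-16), and Rspo2, an R-spondin, at −1.34 (adjusted p = 5.86e-05). Genes of both the removal and its restraint were thus among those that fell.

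Inside the cell, Dishevelled relays the signal from the motif shown above. Dvl2 had 197, 220.3 and 197 normalized counts in the WT libraries and 161, 174 and 130.2 in those labelled Dab2-cKO, and its fall was small, with a log2 fold change of −0.40 (SE 0.13, adjusted p = 0.0147). That call was lost without the second WT library (log2 fold change −0.33), without the third library labelled Dab2-cKO (−0.31) and with DESeq2 (adjusted p = 0.0559). Dvl1 and Dvl3 were not called, at 0.18 (−0.025 to 0.38) and 0.015 (−0.19 to 0.22), with 95% intervals in parentheses. Ctnnb1, the gene of β-catenin, fell from 3209 ± 189 to 1890 ± 64.7 (SD, n = 3 each), with a log2 fold change of −0.76 (SE 0.07, adjusted p = 4.42e-15). Of the 12 genes of Dishevelled and the relay, 2 were called higher and 6 lower.

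The planar polarity list had 12 genes, of which 6 were called lower and none higher. Vangl2 fell from 779.6 ± 60.0 to 285 ± 16.9 (SD, n = 3 each), with a log2 fold change of −1.45 (SE 0.09, adjusted p = 3.57e-23), and Celsr1 fell as well, at −1.12 (adjusted p = 8.83e-21). These proteins stand beside Fzd3 and Fzd6 at cell borders in the skin. Vangl1 was not called, at −0.19 with a 95% interval of −0.39 to 0.013.

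Of the 5 secreted antagonists that carry a Frizzled-like cysteine-rich domain, 3 were called higher and 1 lower. Sfrp4 rose from 48.4 ± 9.98 to 131 ± 23.8 (SD, n = 3 each), with a log2 fold change of 1.415 (SE 0.19, adjusted p = 4.66e-09), and Frzb was higher at 0.79 (adjusted p = 0.0106), a call lost with library size alone (0.37), without the third WT library (0.69) and without the second library labelled Dab2-cKO (0.66). Sfrp1 fell, at −0.61 (adjusted p = 2.57e-08). Of 10 other antagonists, 1 was called higher and 4 lower, and the largest change was the rise of Dkk2, a ligand of Lrp6, at 1.51 (adjusted p = 2.27e-14). Of 8 genes that β-catenin is known to switch on, 6 were called lower and none higher, led by Bambi, a decoy receptor, at −3.21 (adjusted p = 9.64e-34). Lef1, the largest fall after Bambi in this list, is also one of the hair germ markers. Smo, the hedgehog transducer and the relative of the Frizzled family by fold, fell at −0.53 (adjusted p = 4.30e-07).

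**Figure D4:**
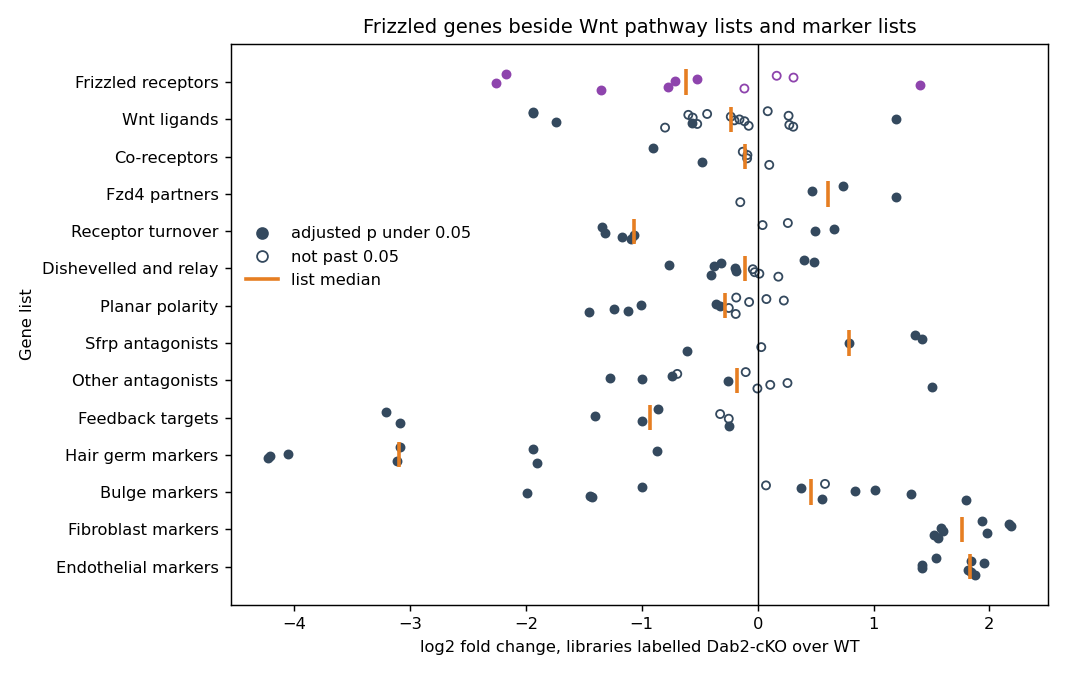
Log2 fold change in the libraries labelled Dab2-cKO over WT for the genes of each list, one list per row. Filled points had an adjusted p under 0.05, open points did not, and the orange line is the list median, at −0.62 for the Frizzled receptors, −1.06 for receptor turnover, −3.10 for hair germ markers and 1.83 for endothelial markers.

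The genes whose pattern over the 6 libraries was most like that of the member with the largest rise and of the member with the largest fall were sought among 10759 genes with a mean of at least 100 normalized counts. Likeness was the root mean square difference of the centred log2 values, with 0 for an identical pattern. Nearest to Fzd4 were Lynx1 at 0.0603, Serpina3b at 0.0615 and Nlrc5 at 0.0653, with log2 fold changes of 1.31, 1.46 and 1.44. Among the 3 nearest to Fzd5 were the histone gene Hist1h1a at 0.120 and Lrrc75b at 0.127, with log2 fold changes of −2.16 and −2.21.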

How the data were processed

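Per the labels, 5 ng of total RNA per library went into stranded total RNA libraries. By the submitters' processing notes and the methods, the authors checked reads with FastQC 0.11.9, trimmed them with fastp 0.23.4, aligned them to GRCm39 with HISAT2 2.2.1 and SAMtools 1.6, and counted them per gene with featureCounts 2.0.6. The authors deposited these values as raw counts, without normalization. How featureCounts handled strand, multiply mapped reads and molecular identifiers, and which annotation release it used, are not given in the sources used here, so limits from counts cover counting error only. A second deposited table, of the authors' own comparison by DESeq2 1.42.0 (normalized values, fold changes and p-values), was not used. Columns of the counts are headed WT or FL-FL, and FL-FL was taken as Dab2-cKO because the title of the series equates them. Same-numbered libraries of the genotypes did not deviate together (Pearson's r 0.0231, 0.0117 and 0.00759 across genes), so the numbers were not used to pair them.

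Counts were analysed in R 4.3.3 with edgeR 4.0.16, using its filter by expression, TMM factors and the quasi-likelihood test with robust estimates, with Benjamini-Hochberg adjustment over 32149 genes and a threshold of 0.05. The model was tested on data simulated from its own dispersions, with few genes changed, equally in both directions. That test could not show how the scaling behaves with as many changes as in these libraries. Levels between genes were compared per kb of exon, from GENCODE vM39. Single ratios and shares were compared by exact 2-sided permutation tests over libraries. The genes and lists were chosen with earlier results of these data known. All 10 members were named, with a fixed set of partners, the gene with the largest change per partner list, Dab2, 4 marker genes and the 3 genes most like 2 of the members, of which 1 is not reported here. In all, 17 alternatives were run, covering the scaling, the filter, a GC correction, a replicate block, a fold threshold of 1.5, DESeq2 and the omission of each library. RefSeq promoter windows of Fzd2, Fzd3, Fzd6 and Fzd8 were not used here.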

Additional observations from a re-analysis of the deposited data

How the results depend on the processing

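The calls of the Frizzled genes depended little on these choices. Fzd4 was called higher under all 17 alternatives, as were Fzd1, Fzd5 and Fzd10 lower, and the count of members called lower was 6 without any one library and 3 against a fold change of 1.5, where Fzd3, Fzd6 and Fzd7 were lost. With library size alone Fzd2 joined the members called lower (log2 fold change −0.54, adjusted p = 0.00069), Fzd4 was at 0.98, and the signs of Fzd8 and Fzd9 turned, to −0.12 and −0.26. Fzd9 had a log2 fold change of −0.060 to 0.32 when one library was left out, with −0.029 without WT replicate 3 and −0.060 without Dab2-cKO replicate 3, and it was not tested at a mean count of at least 50. The Wnt pathway counts of 12 higher and 35 lower became 6 and 58 with library size alone and 5 and 20 against a fold change of 1.5. Of the partners named, Ryk and Vangl1 were called lower with upper-quartile factors, with library size alone and at a mean count of at least 50, and Ror2 with library size alone. Lrp5, Dvl1 and Dvl3 changed sign and were also called lower with library size alone (adjusted p = 2.18e-05, 0.0319 and 2.74e-04). Lrp5 turned to −0.042 with upper-quartile factors and −0.33 with library size alone, Dvl1 to −0.25 with library size alone, and Ror2 to 0.027 and 0.016 without WT replicate 2 or 3. Dvl3 turned to −0.13 with upper-quartile factors, −0.41 with library size alone, −0.017 without a filter on low counts, −0.070 at a mean count of at least 50, −0.025 with a GC correction and −0.019 with the replicate block and GC correction, and lay between −0.062 and 0.090 when one library was left out. The median over all genes also moved, from −0.023 to −0.17 with upper-quartile factors and to −0.45 with library size alone. The changes under these settings thus went with a shift of that median. The cause of the other changes was not tested. With the replicate block, 1 member was called higher and 6 lower, as without it, and calls over all genes went from 5387 to 5347 higher and from 3682 to 3620 lower. Each library correlated best with its own number, but at 0.0231 or less, which is too weak to pair them. The depth limits Fzd8 and Fzd9 most, with 57 to 127 and 15 to 23 counts per library.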
